A study of Mus musculus with 12 samples.

Results

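The comparison described here is that of Cdk7 knockout with wild type perigonadal white fat under saline, the baseline effect of losing Cdk7 from adipose tissue. Its members are 6 of the 12 libraries of the study, chosen by their titles: 3 of knockout mice (ko saline 1 to 3) and 3 of wild type littermates (wt saline 1 to 3). All mice were C57BL/6, 9 weeks old, fed standard chow, injected with saline for 7 days and killed at zeitgeber time 9. Each library held RNA of 2 mice of 1 genotype, 250 ng from each; a group thus drew on 6 mice, and p-values reflect how far such pools vary. The other 6 libraries came from the same genotypes given CL, an agent the labels name only by this abbreviation, and serve below for 1 comparison. The knockout is labelled as adipose-specific, while its Cre driver and the sex of the mice were not named in the labels. A further label for genotype contradicts the titles of 6 of the 12 libraries, and the level of Cdk7 was used to check the titles.

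Cdk7 is the kinase of TFIIH, the general transcription factor that opens promoter DNA for RNA polymerase II. With cyclin H (Ccnh) and the assembly factor Mat1 (Mnat1) it forms the CDK-activating kinase, which phosphorylates the tail of the largest polymerase subunit and the activation loops of cell cycle kinases. Perigonadal fat is a visceral depot whose adipocytes make and store triglyceride, release fatty acids when beta-adrenergic receptors are stimulated, and secrete hormones such as leptin and adiponectin. The tissue also holds macrophages, fibroblasts, endothelium and mesothelium, and in mice it lies against the ducts of the reproductive tract.

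The 6 saline libraries held 23722036 to 27985019 gene counts. Of 53379 gene identifiers, 16554 had enough counts to be tested. Levels below are CPM, counts relative to the library total, after scaling by TMM, a method that corrects for differences in composition between libraries. Markers of adipocytes were abundant in every library: the 30 genes of the adipocyte list summed to 75766 to 82171 CPM in wt saline and 50107 to 52695 CPM in ko saline. The ko libraries had more genes with at least 1 count (21954 to 22121, against 20834 to 21442), and their 10 most abundant genes took a smaller part of all counts (10.3% to 12.0%, against 15.1% to 16.9%). Library wt saline 1 stood apart from the other wt libraries. On the first principal component of the 6 saline libraries (68.3% of the variance) it lay at 2.25, between wt saline 2 and 3 at -68.0 and -52.8 and the ko libraries at 32.7 to 46.5. Genes that were high both in it and in the ko libraries are set apart below.

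These genes were defined by their levels alone. A gene belonged to the shared profile when its CPM plus 0.5 was at least 2 times that of both wt saline 2 and wt saline 3, in wt saline 1 and in each ko saline library. This held for 268 of the tested genes, which summed to 868 CPM in wt saline 1, 105 and 144 CPM in wt saline 2 and 3, and 1487 to 2145 CPM in ko saline. Because high levels in ko chose these genes, their difference between the genotypes is a description and has no test of its own. Outside the profile the first component (55.0% of the variance) still placed wt saline 1 at -10.1, nearer to the ko libraries (24.8 to 36.1) than wt saline 2 and 3 were (-44.2 and -38.5).

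Cdk7 fell in all 3 ko libraries, and the other subunits of its kinase complex did not fall with it. The gene, ENSMUSG00000069089, lies on the minus strand of chromosome 13 (GRCm38, 100702631 to 100730939). Cdk7 was measured at 29.67, 29.98 and 29.29 CPM in wt saline 1 to 3 and at 11.02, 11.72 and 11.52 CPM in ko saline 1 to 3. The groups did not overlap, as in 37.7% of all genes, and the remaining level was alike in the 3 ko pools; fewer recombined cells and less RNA per cell cannot be told apart in whole tissue. The log2 fold change was -1.38 ± 0.10 (SE, n = 3 and 3, edgeR quasi-likelihood test with Benjamini-Hochberg adjustment over all genes, adjusted p = 6.21e-06). An exact two-sided permutation test gave p = 0.1, the smallest possible with 3 against 3. Ccnh was at 24.4, 27.3 and 27.4 CPM in wt and 34.3, 32.8 and 27.3 CPM in ko (adjusted p = 0.0659), and it was called higher with library sizes alone, with the stricter filter and without ko saline 3 (adjusted p = 0.00435, 0.0482 and 0.0157). Mnat1 differed by -0.07 ± 0.07 (adjusted p = 0.575). Of the 98 tested genes within 8 Mb of Cdk7, 10 were called, 10.2%, against 14.4% of all genes tested.

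Across all genes, 2391 of 16554 were called at an adjusted p under 0.05 (14.4%): 1323 were higher in ko (7.99%) and 1068 lower (6.45%). The rises were larger than the falls. At least 2-fold changes were found for 579 of the higher and 175 of the lower genes, and at least 4-fold changes for 268 and 34. The shared profile held 145 of the higher genes, all of them at least 2-fold, and none of the lower ones. Its rule asks for high levels in every ko library, so this direction and size follow largely from the rule. Outside the profile 1178 genes were higher (7.23% of 16286) and 1068 lower (6.56%). Most of the 434 2-fold rises outside the profile were in weakly detected genes: only 87 had a ko mean of at least 5 CPM. In 339 of these 434 (78.1%) wt saline 1 was also the highest of the wt libraries, as it was in 35.4% of all genes tested. For the 1068 lower genes wt saline 1 was the lowest wt library in 44.0%, against 34.9% of all genes.

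The balance of rises and falls depended on the scaling. With library sizes alone, which leave out the correction for composition, 3733 genes were higher and 506 lower, so that 88.1% of the calls were rises in place of 55.3%. It called 22.6% of all genes higher and 3.06% lower. These shares stand behind every list count given below with library sizes alone. That scaling moved the median log2 fold change of all genes from -0.01 to 0.15, and changes of this size are therefore relative to the scaling. The mean log2 level of 41 genes of motile cilia, used as a covariate, left 42 higher and 108 lower genes. That score was 2.36 to 2.74 in ko saline, 1.595 in wt saline 1, and -1.18 and -0.51 in wt saline 2 and 3, so it differed with the genotype itself.

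**Figure D1:**
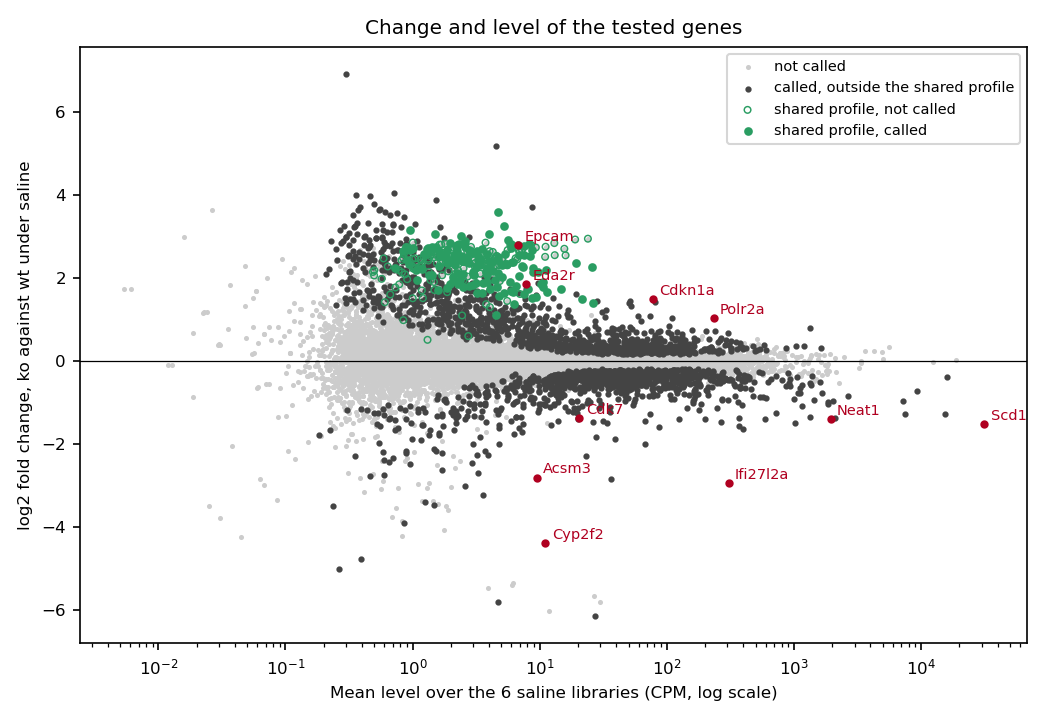
Log2 fold change of ko against wt under saline against the mean CPM of the 6 saline libraries (log axis), 1 point per tested gene. Genes called outside the shared profile are dark, the 268 genes of the shared profile are green, and labelled genes are red; the green points lie at higher levels in ko and mostly under 30 CPM, while the falls reach to the most abundant genes.

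Among the genes of the transcription machinery, the largest subunit of the polymerase rose. Polr2a (GRCm38 chromosome 11, 69733997 to 69758637, minus strand), whose tail Cdk7 phosphorylates, was at 162, 138 and 159 CPM in wt and 327, 306 and 310 CPM in ko. All 3 ko libraries were far above all wt libraries (log2 fold change 1.04 ± 0.09, adjusted p = 2.45e-05), and the call held under every alternative tried. Of 36 genes of polymerase II and Mediator, 4 were called higher and none lower (11.1%, against 7.99% of all genes); with library sizes alone 13 were higher, against 22.6% of all genes. The other 3, Polr2b (0.25), Polr2d and Med14 (at most 0.24), changed little, and without wt saline 1 only Polr2a remained higher. Among the 10 genes of the Cdk7 complex and the TFIIH core, Cdk7 was the only one called lower. Gtf2h1 (0.28 ± 0.06, adjusted p = 0.00780) and Gtf2h3 (0.31 ± 0.06, adjusted p = 0.00886), both core subunits, rose slightly. Gtf2h5 (0.22) and Ercc3, the helicase that opens the promoter (0.18), were called higher too, but neither call held when any 1 library was left out. Outside these lists, Taf13, a subunit of TFIID, rose from 28.5 ± 2.3 to 48.5 ± 1.6 CPM (SD, n = 3 each, adjusted p = 9.53e-05) and Gtf2a1, a subunit of TFIIA, from 34.6 ± 2.2 to 53.7 ± 1.6 CPM (SD, n = 3 each, adjusted p = 0.000231). These 2 genes were chosen after their values were seen.

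**Figure D2:**
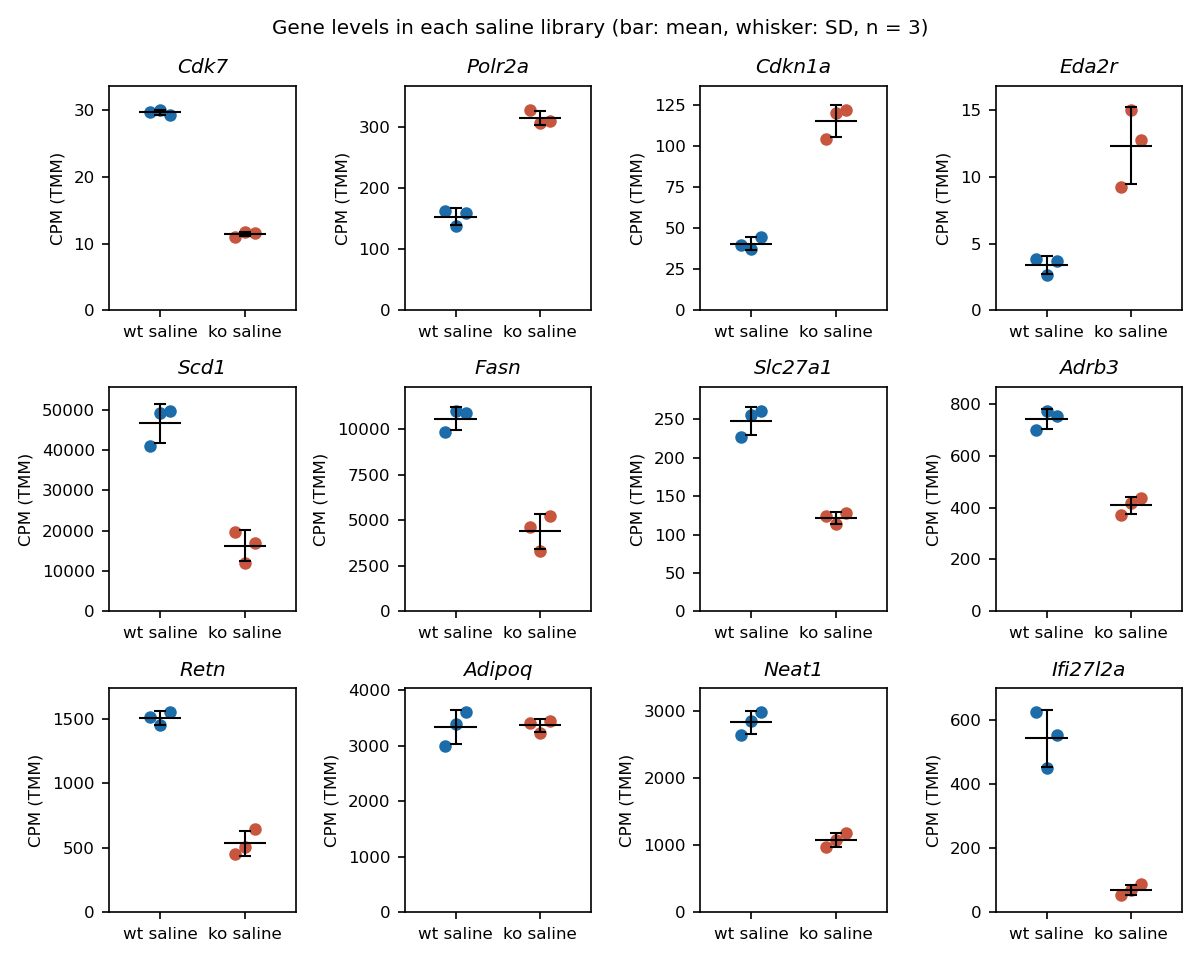
CPM after TMM scaling in each saline library for 12 genes (points: wt in blue, ko in red; bar: mean; whisker: SD, n = 3 per group; axes start at 0). The libraries of the genotypes are separate for 11 of the genes, while those of Adipoq overlap. The 12 genes were picked with results of these data known, and 37.7% of all genes tested were separate in this way.

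The genes of fatty acid synthesis fell together. This pathway turns citrate and acetate into fatty acids and introduces their first double bond. Of its 18 tested genes 10 were called lower and 1 higher (55.6% lower, against 6.45% of all genes), with a median log2 fold change of -0.56 against -0.01 over all genes. Scd1 (GRCm38 chromosome 19, 44394455 to 44407879, minus strand), the delta-9 desaturase and the most abundant transcript of the list, was at 41022, 49202 and 49650 CPM in wt and 19715, 12064 and 17027 CPM in ko. The lowest wt library was thus above 2 times the highest ko library (log2 fold change -1.52 ± 0.21, adjusted p = 0.00100). Fasn, the fatty acid synthase (GRCm38 chromosome 11, 120805846 to 120824547, minus strand), was at 9865, 11010 and 10920 CPM in wt and 4641, 3335 and 5224 CPM in ko (-1.27 ± 0.23, adjusted p = 0.00413). Acss2, which makes acetyl-CoA from acetate, fell the most, from 576, 643 and 574 CPM to 219, 159 and 199 CPM (-1.64 ± 0.20, adjusted p = 0.000446). In each of these 3 genes ko saline 2 was the lowest library.

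The remaining lower members served the supply of substrate and reducing power or later steps. Me1, malic enzyme, which makes NADPH, fell from 1914 ± 302 to 756 ± 215 CPM (SD, n = 3 each, adjusted p = 0.00406). The second desaturase Scd2 fell by 1.25, and Thrsp, a regulator of lipogenesis, by 1.07, and the delta-5 desaturase gene Fads1 by 0.54, on the log2 scale. The citrate lyase gene Acly was called lower by a narrow margin (2094 ± 179 to 1224 ± 285 CPM, adjusted p = 0.0488). Elovl5, an elongase of polyunsaturated fatty acids, was the 1 member called higher (0.40 ± 0.09, adjusted p = 0.0157). Of the 11 calls, 7 held under all 12 other scalings, filters, models and left-out libraries, and those of Acly, Acacb, Slc25a1 and Elovl5 did not. With the cilia score as a covariate none was called, with a median of -0.51.

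Since Fasn is the gene that gives the pathway its name, the promoter is shown with the CCAAT box, the site of the factor NF-Y. The sequence is from RefSeq (GRCm38.p6, chr11:120824558-120824747, minus strand, from 200 to 11 bases before the start site, 5′ to 3′); capitals mark CCAAT or its reverse complement ATTGG.
Fasn: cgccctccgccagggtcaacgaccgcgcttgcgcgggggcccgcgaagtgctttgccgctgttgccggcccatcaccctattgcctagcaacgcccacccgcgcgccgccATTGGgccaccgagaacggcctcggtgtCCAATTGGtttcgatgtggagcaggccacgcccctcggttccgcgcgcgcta
The window held 3 matches, which began 90, 62 and 59 bases before the start, and the last 2 overlap. On either strand, 5 of the 7 lower fatty acid synthesis genes that have an entry held at least 1 match, as did 28.5% of all 32851 promoters over the same stretch. A gene counted when any of its promoters matched, while the 28.5% is of single promoters, so these shares are not in like units. A match is a description of the letters and shows no binding.

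Triglyceride assembly and lipid storage genes were lower as well. Of 14 genes of triglyceride assembly 6 fell (42.9%, against 6.45% of all genes) and 1 rose, and all 7 calls held under the 12 alternatives. Dgat2, which adds the last fatty acid, fell from 2690 ± 159 to 1392 ± 34 CPM (SD, n = 3 each, adjusted p = 0.000883). Agpat2 fell by 0.88, Mogat2 by 1.05 and Mogat1 by 0.62, all acyltransferases, on the log2 scale. Pck1, which makes glycerol backbone from pyruvate, was at 2831, 2565 and 2050 CPM in wt and 1213, 1374 and 1170 CPM in ko (-0.99 ± 0.15, adjusted p = 0.00180). Slc25a10, the dicarboxylate carrier, fell by 0.80. Gk, glycerol kinase, went the other way, from 25.3, 13.8 and 16.8 CPM to 41.5, 47.4 and 39.1 CPM (1.19 ± 0.21, adjusted p = 0.00339). Of 17 genes of fatty acid uptake 5 fell (29.4%) and none rose. With library sizes alone 2 were lower and 3 higher, against 3.06% and 22.6% of all genes. The transporter Slc27a1 was at 227, 256 and 261 CPM in wt and 124, 113 and 128 CPM in ko (-1.02 ± 0.08, adjusted p = 1.12e-05), and kept its call with the cilia score.

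Droplet and lipolysis genes had 7 of 20 members lower (35.0%, against 6.45% of all genes) and 1 higher. Library sizes alone gave 6 lower and 3 higher, against 3.06% and 22.6% of all genes. Cidec, which enlarges lipid droplets, fell from 2471 ± 137 to 1209 ± 78 CPM, and Plin1, the coat protein of adipocyte droplets, from 1313 ± 77 to 704 ± 72 CPM (SD, n = 3 each, adjusted p = 0.000883 and 0.00643). Lipe, hormone-sensitive lipase, fell from 1885 ± 59 to 990 ± 70 CPM (adjusted p = 0.00271), and G0s2, an inhibitor of the first lipase, from 126, 114 and 73.1 to 33.1, 43.1 and 52.6 CPM (adjusted p = 0.00719). That first lipase, Pnpla2, was not called (-0.34 ± 0.13, adjusted p = 0.103), and Mgll, which takes the last fatty acid, was called higher (0.31, adjusted p = 0.0277), a call that ended when any 1 library was left out.

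The receptor side of lipolysis was lower too. Of 23 genes of beta-adrenergic and cAMP signalling 5 fell (21.7%, against 6.45% of all genes) and none rose, and all 5 calls held under the 12 alternatives, although the list median turned from -0.13 to 0.02 with library sizes alone. Adrb3, the beta-3 receptor of adipocytes (GRCm38 chromosome 8, 27225776 to 27250616, minus strand), was at 698, 772 and 754 CPM in wt and 372, 419 and 435 CPM in ko (-0.86 ± 0.10, adjusted p = 0.000238). The phosphodiesterase genes Pde4d and Pde3b, whose products break down cAMP, fell by 0.85 and 0.41, the adenylyl cyclase gene Adcy3 by 0.53, and the alpha-1A receptor gene Adra1a by 0.46, on the log2 scale.

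The adipocyte list had 14 of 30 genes lower and 1 higher (46.7% lower, against 6.45%), with a median of -0.28, and the change was uneven. With library sizes alone 9 were lower and 3 higher, against 3.06% and 22.6% of all genes. Retn, the hormone resistin, was at 1516, 1447 and 1551 CPM in wt and 455, 503 and 643 CPM in ko (adjusted p = 0.000179). Cfd, adipsin, fell from 3060 ± 95 to 1179 ± 391 CPM, Car3, carbonic anhydrase 3, from 21892 ± 1809 to 9131 ± 539 CPM, and Apoc1 from 108 ± 24 to 27.1 ± 5.8 CPM (SD, n = 3 each, adjusted p = 0.00221, 0.000883 and 0.00253). Fabp4, the fatty acid carrier, fell from 11428 ± 607 to 7010 ± 359 CPM (adjusted p = 0.00862). The hormones adiponectin and leptin were not called: Adipoq was at 3334 ± 306 and 3371 ± 116 CPM, and Lep at 1203 ± 145 and 1155 ± 83 CPM, in wt and ko (SD, n = 3 each, adjusted p = 0.946 and 0.754). Pparg, the master regulator of adipocytes, differed by -0.16 ± 0.11 (adjusted p = 0.387), and Cebpa, its partner, was called lower by 0.42 (adjusted p = 0.0143), a call lost with library sizes alone and without wt saline 2, ko saline 1 or ko saline 2 (adjusted p = 0.0777, 0.0565, 0.0639 and 0.0592). Mest, an imprinted gene that marks expanding adipose tissue, was at 181, 150 and 122 CPM in wt and 251.5, 290.5 and 214.5 CPM in ko (adjusted p = 0.00670). In whole tissue, fewer adipocytes and less RNA per adipocyte cannot be told apart; within the same libraries Car3 differed by -1.26 and Adipoq by 0.02, a contrast that was not tested. With the cilia score 2 members stayed called, Plin4 and Retn, at a median of -0.29.

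**Figure D3:**
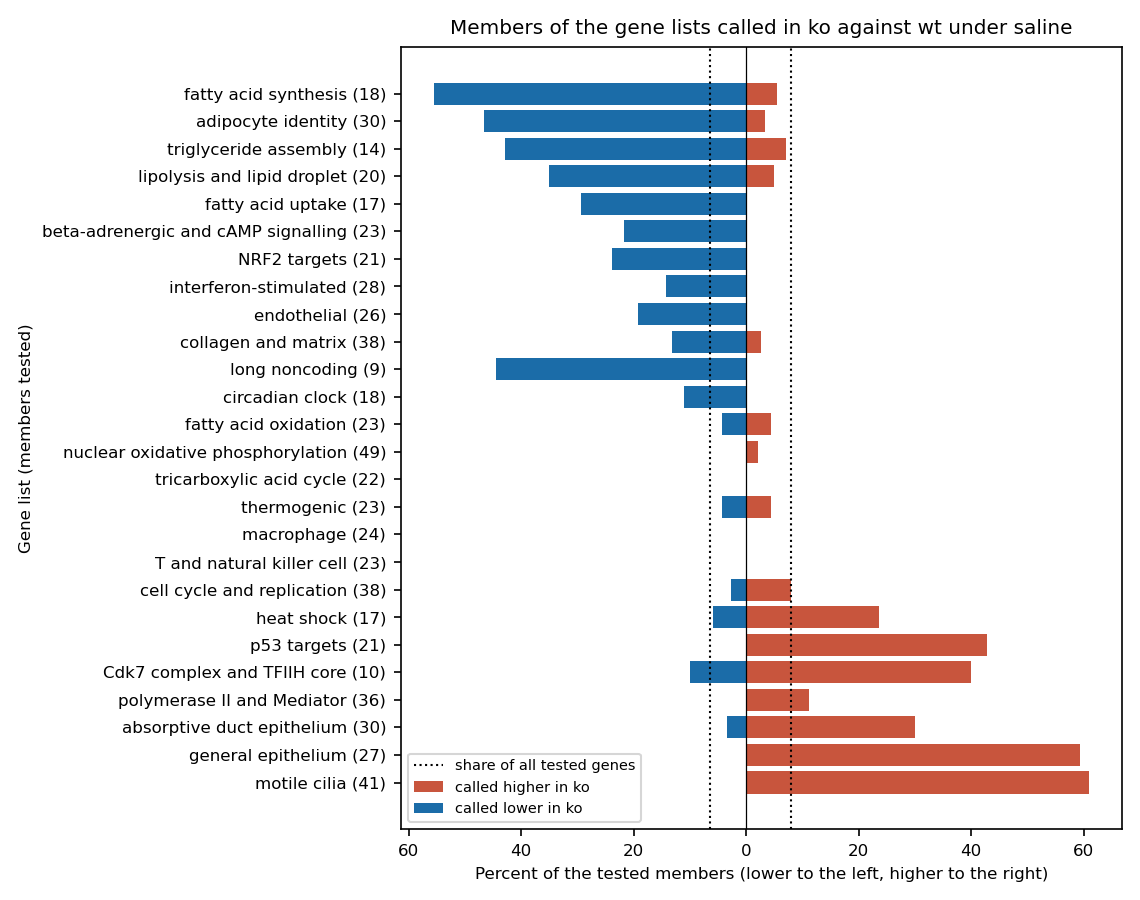
Percent of the tested members of 26 gene lists called lower (blue, left) or higher (red, right) in ko under saline, with the number tested in brackets; dotted lines mark the shares of all tested genes, 6.45% lower and 7.99% higher. The 6 lists at the top, of lipid and adipocyte genes and beta-adrenergic signalling, reach 21.7% to 55.6% lower, while the 3 epithelial lists at the bottom reach 30.0% to 61.0% higher.

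Genes of the tricarboxylic acid cycle and of oxidative phosphorylation had few calls, where 14.4% of all genes tested were called in either direction. None of 22 genes of the tricarboxylic acid cycle and none of 7 mitochondrially encoded genes was called in edgeR's test (2 and 0 had an unadjusted p under 0.05, and DESeq2 called 1 and 0). A list of 7 genes is too short for its count of calls to be told from 14.4%. Over all 16554 genes tested, 4900 had an unadjusted p under 0.05. Of 49 nuclear genes of oxidative phosphorylation 1 was called, Ndufb3, a subunit of complex I, which rose from 91.1 ± 6.6 to 149 ± 7.4 CPM (SD, n = 3 each, adjusted p = 0.000158). Fatty acid oxidation had 1 of 23 higher (Hadhb) and 1 lower (Acads), 4.35% each, against 7.99% and 6.45% of all genes. Among 23 thermogenic genes Gk rose and Cox8b fell (4.35% each). Cox8b went from 8.21, 8.77 and 15.9 to 2.43, 3.59 and 5.36 CPM (adjusted p = 0.0379). That call of Cox8b ended when wt saline 2 or 3 or ko saline 1 or 2 was left out. Ppargc1a, a coactivator of mitochondrial genes, was at 12.1 ± 0.32 and 10.9 ± 0.95 CPM (SD, n = 3 each, adjusted p = 0.612). Ucp1, the uncoupling protein of brown fat, was at most 0.339 CPM in any saline library.

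Targets of p53 were the group outside epithelium with the largest share of rises among those in the plot of gene lists. p53 is a transcription factor that responds to damaged DNA and other stresses and induces arrest and death genes. Of 21 tested targets 9 were higher and none lower (42.9%, against 7.99% of all genes), and 8 of these calls held under the 12 alternatives. With library sizes alone 14 were higher, against 22.6% of all genes. Cdkn1a (GRCm38 chromosome 17, 29090976 to 29100727, plus strand), which encodes the kinase inhibitor p21, was at 40.03, 37.23 and 44.91 CPM in wt and 104, 120 and 122 CPM in ko. The lowest ko library was above 2 times the highest wt library (1.501 ± 0.09, adjusted p = 2.74e-06). With the cilia score as a covariate Cdkn1a was the only 1 of the 9 still called, at a list median of 0.40. Eda2r, a death receptor of the tumour necrosis factor family on the X chromosome, rose from 3.84, 2.64 and 3.70 to 9.28, 15.0 and 12.8 CPM (1.86 ± 0.23, adjusted p = 0.000460). Trp53inp1, which promotes p53-dependent death and autophagy, rose from 37.3 ± 4.9 to 66.1 ± 2.5 CPM, Ccng1, cyclin G1, from 175 ± 10 to 256 ± 9.8 CPM, and Mdm2, the ligase that degrades p53, from 48.0 ± 2.2 to 67.0 ± 1.9 CPM (SD, n = 3 each, adjusted p = 0.00118, 0.000621 and 0.00103). Perp (1.08), Aen (0.51), Ei24 (0.33) and Zmat3 (0.28) also rose, on the log2 scale; Perp is a junction gene of epithelia as well, and its wt libraries were at 4.48, 3.20 and 2.53 CPM. The call of Zmat3 ended without wt saline 3 (adjusted p = 0.0520).

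The promoter of Cdkn1a is shown because it holds the paired p53 motif and its gene had the smallest adjusted p of the list. The sequence is from RefSeq (GRCm38.p6, chr17:29090779-29090968, plus strand, from 200 to 11 bases before the first start site, 5′ to 3′); capitals mark the 2 matches to the p53 half-site consensus of 10 bases.
Cdkn1a: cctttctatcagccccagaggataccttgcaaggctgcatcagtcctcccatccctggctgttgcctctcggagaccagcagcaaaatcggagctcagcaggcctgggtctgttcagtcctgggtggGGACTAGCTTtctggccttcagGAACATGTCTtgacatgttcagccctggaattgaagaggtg
The matches began 73 and 51 bases before the start. A pair of half-sites with at most 13 bases between them was found in 15 of 32851 promoter windows (0.0457%), and in 1 of the 6 higher p53 targets that have an entry. Here too a gene counted when any of its windows matched, so the counts are in unlike units. The consensus is its own reverse complement, so a search of 1 strand covers both; the absence of a match says only that these letters are not in this window.

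Other stress genes moved in both directions. Of 27 genes of the integrated stress and unfolded protein responses 4 were higher (14.8%, against 7.99% of all genes) and 3 lower (11.1%, against 6.45%), and with library sizes alone 9 and 2. Atf4, the main transcription factor of the integrated stress response, fell from 81.7 ± 1.4 to 62.4 ± 3.6 CPM, and Asns, asparagine synthetase, one of its targets, from 75.1 ± 2.8 to 50.2 ± 0.43 CPM (SD, n = 3 each, adjusted p = 0.00119 and 0.00318). Of 17 heat shock genes 4 were higher (23.5%) and 1 lower, and with library sizes alone 9 and 1. Hspb1 rose from 31.1, 34.5 and 29.9 to 44.5, 65.8 and 59.9 CPM (adjusted p = 0.00251), and Hsph1 from 35.6, 34.9 and 35.6 to 63.5, 58.7 and 51.7 CPM (adjusted p = 0.00701). Hspb7, a small heat shock protein of muscle, was the 1 lower member, at 17.1, 22.4 and 24.8 CPM in wt and 11.8, 12.4 and 5.74 CPM in ko (adjusted p = 0.0248). NRF2 targets had 5 of 21 lower (23.8%, against 6.45%) and none higher. Library sizes alone gave 4 lower and 3 higher, against 3.06% and 22.6% of all genes. Among the lower was Gsta3, a glutathione transferase, at 360, 358 and 460 CPM in wt and 179, 104 and 141 CPM in ko (adjusted p = 0.00551). Me1 is in this list and in that of fatty acid synthesis. Of 18 clock genes 2 were lower (11.1%), Nr1d1 (213 ± 35 to 113 ± 9.1 CPM, SD, n = 3 each, adjusted p = 0.00709) and Rora (-0.30), whose call was lost with library sizes alone (adjusted p = 0.215).

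Of 38 genes of the cell cycle, on which Cdk7 acts through its target kinases, 3 were higher (7.89%, against 7.99% of all genes) and 1 lower, and none of these calls held under all 12 alternatives. The list median was 0.32 against -0.01 over all genes. An unadjusted p under 0.05 was found for 16 of the 38, and for 4900 of all 16554 genes tested. With library sizes alone 18 of the 38 were higher and none lower, where 22.6% of all genes were higher. Hist1h1d, a linker histone of replicating cells that stands outside that list, rose from 1.54, 1.68 and 1.89 to 7.76, 6.00 and 6.41 CPM (1.98 ± 0.20, adjusted p = 0.000105).

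Among 28 interferon-stimulated genes 4 were lower (14.3%, against 6.45% of all genes) and none higher, and 2 were lower with library sizes alone. Ifi27l2a (GRCm38 chromosome 12, 103442167 to 103443680, minus strand), a small interferon-induced protein gene, had the second largest fall by the rule for single genes described below. It was at 626, 451 and 553 CPM in wt and 55.8, 69.3 and 87.2 CPM in ko (-2.94 ± 0.16, adjusted p = 2.13e-06). Ifit3, at 26.2, 29.0 and 25.3 CPM in wt and 19.4, 17.8 and 18.1 CPM in ko, changed far less (-0.54 ± 0.10, adjusted p = 0.00542). The calls of Oasl2 (-0.24) and Bst2 (-0.37) ended with library sizes alone (adjusted p = 0.418 and 0.214). Of 9 long noncoding RNAs 4 were lower (44.4%) and none higher, and with library sizes alone 1 was lower and 1 higher. Neat1, the scaffold of nuclear paraspeckles (GRCm38 chromosome 19, 5824708 to 5845478, minus strand), was at 2640, 2853 and 2980 CPM in wt and 980, 1081 and 1188 CPM in ko (-1.38 ± 0.10, adjusted p = 6.21e-06). Malat1, Gas5 and Dleu2 were called lower by 0.60, 0.35 and 0.43, and all 3 calls ended with library sizes alone.

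Markers of macrophages and lymphocytes showed few calls. None of 24 macrophage genes, 11 genes of MHC class II and 23 genes of T and natural killer cells was called in edgeR's test (3, 0 and 0 had an unadjusted p under 0.05, and DESeq2 called 0 in each). Of all genes tested 14.4% were called, and a list of 11 is too short for its count to be told from that share. An unadjusted p under 0.05 was found for 4900 of all 16554 genes. Adgre1, the macrophage surface protein F4/80, was at 67.3 ± 3.8 and 71.4 ± 2.7 CPM, and Cd68 at 32.7 ± 5.8 and 31.6 ± 3.2 CPM, in wt and ko (SD, n = 3 each, adjusted p = 0.751 and 0.888). The macrophage list as a whole summed to 2201 to 2289 CPM in wt and 2110 to 2208 CPM in ko. Of 22 genes of lipid-associated macrophages and lysosomes 2 were higher (9.09%, against 7.99% of all genes) and 1 lower (4.55%, against 6.45%), shares near those of all genes. Ctsl, cathepsin L, rose from 977 ± 52 to 1713 ± 164 CPM and Lamp1, a lysosomal membrane protein, from 774 ± 2.3 to 974 ± 22 CPM (SD, n = 3 each, adjusted p = 0.00342 and 0.0108). The fall of Lpl in this list was not called with library sizes alone (adjusted p = 0.107) or when any 1 library was left out. Of 38 collagen and matrix genes, 5 fell (13.2%, against 6.45% of all genes) and 1 rose. With library sizes alone 4 were lower and 8 higher, where 3.06% of all genes were lower and 22.6% higher. Col5a3 fell from 610 ± 14 to 343 ± 12 CPM and Col18a1 from 174 ± 8.1 to 101 ± 14 CPM (SD, n = 3 each, adjusted p = 0.00247 and 0.00161), Thbs1 fell by 0.92 on the log2 scale and Lum, lumican, rose by 0.43, whereas Col1a1, the main fibrillar collagen, was not called (adjusted p = 0.892). Of 25 progenitor and fibroblast genes 2 were lower (8.0%, against 6.45% of all genes) and none higher, at a median of -0.06. Without wt saline 1 that list had 2 lower and 2 higher. Its member Dpt, dermatopontin, was at 511, 476 and 506 CPM in wt and 322, 316 and 324 CPM in ko (-0.63 ± 0.07, adjusted p = 0.000319). Of 26 endothelial genes 5 were lower (19.2%, against 6.45% of all genes) and none higher; 1 was lower with library sizes alone, and 2 were lower and 1 higher without wt saline 1. Cldn5, the tight junction protein of endothelium, fell from 54.1 ± 7.7 to 38.9 ± 4.9 CPM (SD, n = 3 each, adjusted p = 0.0240). Vegfa, the growth factor in this list, fell from 259 ± 3.8 to 158 ± 7.8 CPM (SD, n = 3 each, adjusted p = 0.00456), and it was the only 1 of the 5 whose call held under the 12 alternatives.

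The rule for single genes also passed over genes with wt saline 1 at least 2 times as high as wt saline 2 and 3. By that rule, the largest falls outside the shared profile included Cyp2f2, a cytochrome P450, at 11.6, 25.4 and 26.5 CPM in wt and 1.41, 0.622 and 0.989 CPM in ko (-4.38 ± 0.59, adjusted p = 0.000747). Acsm3, a mitochondrial medium-chain acyl-CoA synthetase, fell from 16.3, 14.1 and 19.3 to 2.03, 2.16 and 2.87 CPM (-2.80 ± 0.20, adjusted p = 6.38e-06). Clstn3, whose adipocyte form acts at lipid droplets, fell from 35.5, 43.3 and 36.3 to 8.16, 7.29 and 8.04 CPM (-2.29 ± 0.26, adjusted p = 0.000249). Myom3 (11.1 ± 0.44 to 3.41 ± 0.24 CPM), Golga7b, Pon1, Cldn22 and Pla2g2e, a secreted phospholipase, were also among the 12 and fell by 1.70 to 2.25 on the log2 scale. Acta1, skeletal muscle actin, was at 25.6, 69.3 and 35.4 CPM in wt and 7.94, 16.4 and 12.4 CPM in ko; 3 of 12 tested skeletal muscle genes were lower (against 6.45% of all genes) and none higher, and that list summed to 232 to 288 CPM in wt and 135 to 149 CPM in ko, whose part in the fall of Acta1 was not tested.

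The same rule took 12 rises from outside the profile. Lrrc51, a leucine-rich repeat gene, had the smallest adjusted p of the 12, at 10.02, 8.97 and 9.29 CPM in wt and 30.3, 30.4 and 27.0 CPM in ko (1.63 ± 0.09, adjusted p = 2.33e-06). Mfsd13b, a transporter-like gene, rose from 2.64, 2.88 and 2.53 to 10.9, 7.98 and 7.95 CPM (adjusted p = 0.000179), and Slc5a7, the choline transporter, from 4.78, 2.44 and 5.05 to 13.89, 19.95 and 11.97 CPM (adjusted p = 0.00624). Fam167a, at 3.69, 1.64 and 0.890 CPM in wt and 6.78, 8.68 and 6.03 CPM in ko, was also among the 12, and several others were genes of cilia or epithelium. Enkur, Cfap69 and Dnah1, all of motile cilia, rose by 2.02, 1.73 and 1.71, and Cftr, the chloride channel of duct epithelium, by 1.62, on the log2 scale. In Enkur, Dnah1, Tspan33 and Ank3 wt saline 1 was the highest wt library, the order seen in the shared profile, at 2.18, 3.13, 2.71 and 5.76 CPM against at most 1.08, 1.44, 1.64 and 2.63 CPM in wt saline 2 and 3. It was also the highest in Fam167a, Cfap69, Eda2r, Lrrc51 and Cftr, but not in Hist1h1d, Slc5a7 and Mfsd13b. Over all genes tested it was the highest in 35.4%. Setting the profile apart by its rule thus left genes of cilia and epithelium among the rises, and their part in the count of rises was not tested.

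The shared profile held members of the lists of ciliated, general and absorptive duct epithelium. Epcam, the general epithelial adhesion protein (GRCm38 chromosome 17, 87635979 to 87651129, plus strand), was at 4.03, 0.560 and 0.498 CPM in wt saline 1 to 3 and 10.4, 15.1 and 10.1 CPM in ko saline 1 to 3. Foxj1, the transcription factor that switches on motile cilia, was at 4.44, 0.0400 and 0.320 CPM in wt and 5.62, 9.81 and 8.58 CPM in ko. Mmp7, a protease of secretory epithelium, was at 12.5, 0 and 0.641 CPM in wt and 31.3, 40.5 and 29.1 CPM in ko. Slc9a3, a sodium-proton exchanger of absorptive ducts, and Ak7, an adenylate kinase of cilia, followed the same order, as did Sectm1b, ccdc198, Rgs22, Dsg2, Greb1, Dao and Cdh1. In each of these genes wt saline 1 lay between the other wt libraries and the ko libraries. Over the 268 genes the median ratio of wt saline 1 to the ko mean was 0.485.

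By list, 25 of 41 motile cilia genes, 16 of 27 general epithelial genes and 9 of 30 absorptive duct genes were called higher (61.0%, 59.3% and 30.0%, against 7.99% of all genes). These counts include members that the profile's rule selected for high levels in ko, and are a description: 27, 10 and 11 members of the lists, called or not, belonged to the profile, and 7, 8 and 4 of the called ones did not. The motile cilia genes summed to 201 CPM in wt saline 1, 93.8 and 88.9 CPM in wt saline 2 and 3, and 356, 408 and 312 CPM in ko saline 1 to 3. General epithelial genes summed to 125, 81.0 and 71.2 CPM in wt and 174, 253 and 194 CPM in ko. Of 30 epididymal genes only 3 could be tested, and 13 had no count in any saline library. Testis genes had 5 of 21 tested and none called in edgeR's test (3 had an unadjusted p under 0.05, as had 4900 of all 16554 genes, and DESeq2 called 0). Those of oviduct, uterus and ovary had 8 of 16 tested, with 1 higher and 1 lower. The lists do not tell from which duct the epithelial genes came. Among mesothelial genes, the covering cells of the fat pad, 3 of 18 were higher (16.7%; Krt8, Krt18 and Cdh3), all of them genes of other epithelia as well, at a list median of -0.21.

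**Figure D4:**
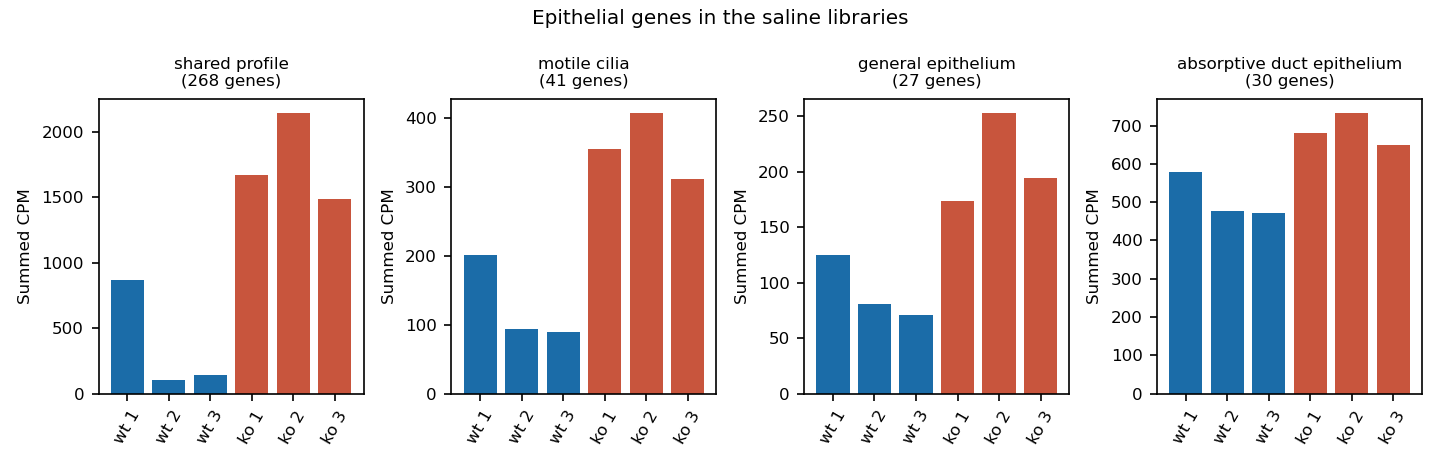
Summed CPM of the 268 genes of the shared profile and of the motile cilia, general epithelium and absorptive duct lists in each saline library (bars from 0; wt blue, ko red). In every panel wt saline 1 is the highest wt library and all ko libraries stand above it.

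The same genotypes were compared in the 6 libraries of mice given CL, which share no library with the saline comparison but were fitted in the same model. Under CL far more genes were called, 56.8% of all: 27.6% higher and 29.3% lower in ko. Of the 1068 genes lower in ko under saline, 673 (63.0%) were also called lower under CL and 153 (14.3%) higher. Of the 1178 higher genes outside the shared profile, 300 (25.5%) were higher and 272 (23.1%) lower under CL, shares near those of all genes. Of the 145 higher genes of the shared profile, 25 (17.2%) were higher and 1 lower, against 27.6% and 29.3% of all genes. Their median log2 fold change under CL was 1.69, but named members were near 0 counts there. Epcam was at 0.112, 0 and 0.0509 CPM in wt CL and 0.728, 1.54 and 0.216 CPM in ko CL (3.87 ± 1.40). Sectm1b was at 0 CPM in each wt CL library and 0.693, 0.534 and 0 CPM in ko CL (6.45 ± 3.34). In all 998 genes were called in the same direction under both treatments.

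Of the 18 fatty acid synthesis genes, 15 were lower under CL against 10 under saline. Acss2 differed by -1.64 under saline and -3.62 under CL, Scd1 by -1.52 and -2.41, and Adrb3 by -0.86 and -2.83; the difference between the treatments was itself called for all 3, as for 45.4% of all genes (adjusted p = 0.000102, 0.0262 and 3.14e-07). Polr2a was higher under both, by 1.04 and 0.79, and the difference was not called (-0.25, adjusted p = 0.120). The p53 targets differed among themselves. Mdm2 was higher under both treatments, by 0.48 and 0.54, and Trp53inp1 by 0.82 and 0.94. Cdkn1a rose by 1.501 under saline and differed by 0.17 under CL (adjusted p = 0.12), and this difference was called (-1.33, adjusted p = 3.85e-06). Adipoq and Lep, not called under saline, were lower under CL by 1.11 and 0.73, and macrophage genes had 20 of 24 members higher under CL against none under saline. Neat1 and Cdk7 were lower under both treatments, and less so under CL (differences of 0.78 and 0.70, adjusted p = 0.000426 and 0.000919).

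**Figure D5:**
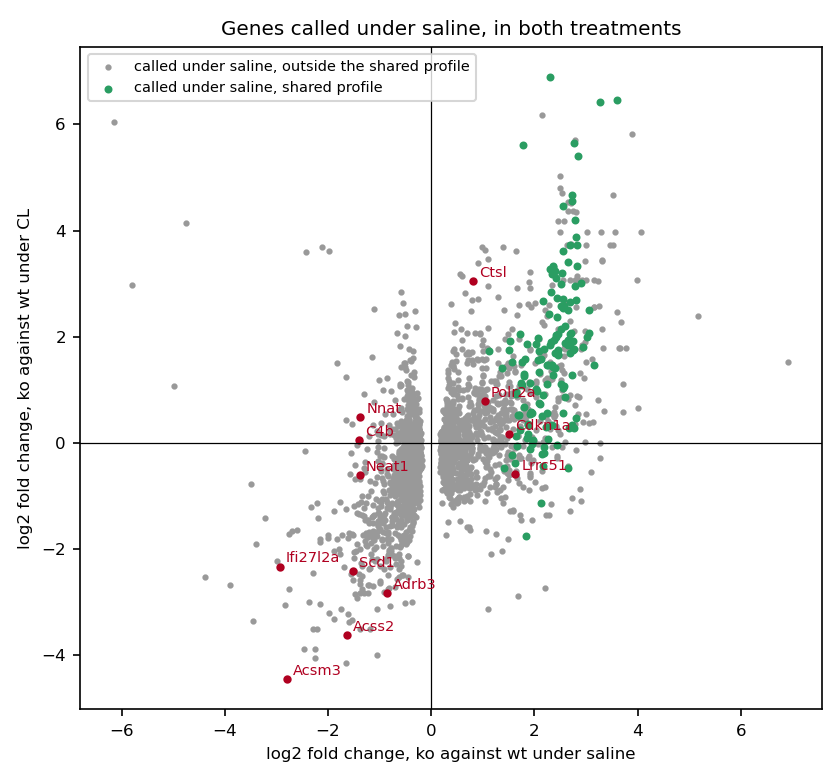
Log2 fold change of ko against wt under CL against that under saline for the 2391 genes called under saline (grey: outside the shared profile; green: inside it; red: named genes). Falls under saline lie mostly below 0 under CL as well, while rises outside the profile spread to both sides of 0.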

How the data were processed

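Each deposited file holds gene counts without normalization, made by the authors with STAR and HTSeq on GRCm38 per the submitters' processing notes. The sources used here name no versions and no annotation. Summary lines of unassigned reads (12.6% to 14.5% in the saline libraries) were left out. Of 53379 identifiers 53274 were matched to GENCODE M21. Genes that share sequence with a copy or overlap another gene on the same strand may be undercounted.

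Groups were taken from the titles. Counts were fitted in R 4.3.3 with edgeR 4.0.16 (filterByExpr with a minimum count of 10, TMM, quasi-likelihood test, all 12 libraries, 1 mean per group, 8 residual degrees of freedom), with Benjamini-Hochberg adjustment and calls at 0.05. Standard errors were derived from the F statistic and the fold change, and are approximate near 0 counts. The common biological coefficient of variation was 11.5%. On simulated counts of this comparison (16321 genes), 68 of 100 genes changed 2-fold and 42 of 100 changed 1.5-fold were called in the right direction, with 6 calls among 16125 others. Chi-square tests of the counts found no library that repeats another. Named genes were the 12 largest rises and 12 largest falls outside the shared profile (protein-coding, mean of at least 5 CPM, no overlap of groups), 8 inside it, a fixed set, and at most 4 of the smallest adjusted p per list. The members, the 56 lists and this rule were chosen with earlier results of these data known. Alternatives were library sizes alone, DESeq2 1.42.0, other filters, the saline libraries alone, a replicate block, a cilia score and each left-out library.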

Additional observations from a re-analysis of the deposited data

Results flagged for a closer look

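Groups of 3 libraries are too small for a test of single outlying values. The knockout effect was compared between the treatments by the interaction term of the edgeR model, as the log2 fold change under CL minus that under saline. Of the 143 genes named in the text, 79 had a called difference, against 45.4% of all genes tested, and 22 differed by at least 1.5 (adjusted p = 5.92e-08 to 0.0268). The knockout effect was lower under CL for Hist1h1d (-2.29), Lrrc51 (-2.22), Mfsd13b (-2.02), Acss2 (-1.99), Adrb3 (-1.98), Mogat1 (-1.90), Cftr (-1.72), Pck1 (-1.66), Acsm3 (-1.64), Slc25a1 (-1.63), Golga7b (-1.62), Hadhb (-1.54) and Ndufb3 (-1.52). It was higher under CL for Nnat (1.86), Adcy3 (2.04), Col1a1 (2.22), Ctsl (2.24), Acta1 (3.32), Hspb7 (3.63), Adgre1 (4.07), Cd68 (4.37) and Svs2 (12.19). The value of Svs2 joins -6.15 under saline, which rests on wt saline 2, with 6.04 in the CL libraries. Adgre1 and Cd68 were not called under saline and rose by 4.16 and 4.32 under CL. Ndufb3 was called higher in ko under saline (0.71) and lower under CL (-0.81), and Adcy3 lower under saline (-0.53) and higher under CL (1.51).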

How the results depend on the processing

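Cdk7 was called lower under every alternative, at -1.22 (library sizes alone) to -1.45 (cilia score). The other main counts were those of higher and lower genes, all and outside the shared profile, and of genes called in the same direction under CL. All of them moved by over 1.5 times with library sizes alone, the cilia score, and without wt saline 2, wt saline 3 or ko saline 2. Without ko saline 1 all moved so far except the genes called in the same direction. With library sizes alone the counts were 3733, 506, 3523, 506 and 2435, and with the cilia score 42, 108, 42, 108 and 111. Without 1 library the counts were 509 to 1402 higher, 551 to 867 lower, 491 to 1134 higher and 551 to 867 lower outside the profile, and 541 to 1023 in the same direction. Without wt saline 2 there were 607 higher and 647 lower genes, without wt saline 3 509 and 556, without ko saline 1 712 and 616, and without ko saline 2 562 and 551. DESeq2, the other filters, the saline libraries alone and the 2 remaining left-out libraries kept the counts within 1.5 times. All 12 alternatives besides the cilia score called 710 of the 2391 genes (346 higher, 364 lower). With a replicate block 1157 genes were higher and 931 lower, and Cdk7 was at -1.38. The replicate numbers do not pair the libraries (correlations of same-numbered deviations -0.05, -0.13 and 0.06), so the block is given only here. Adding 0.05 in place of 0.5 CPM in the profile rule, a choice made after seeing the data, left 1035 higher and 1068 lower genes outside it. With the cilia score the direction turned for Sectm1b (-0.42), ccdc198 (-0.020), Rgs22 (-0.99), Ak7 (-0.67), Dsg2 (-0.72), Greb1 (-0.21), Dao (-0.63), Cdh1 (-0.13), Slc9a3 (-0.57), Svs2 (4.67) and Svs3a (6.07), and for Svs3a without wt saline 2, the library with nearly all its counts (-8.62 to 0.31 over the left-out libraries). The cause was not tested. Of the named genes besides Cdk7, 34 kept their call and direction under every alternative and 108 did not. With this depth and 3 pools per group, true changes can be missed: 42 of 100 simulated 1.5-fold changes were called. In that simulation far fewer genes changed than were called here, so its share need not hold for the real data. Of the 2391 calls, 767 rises and 379 falls were at least 1.5-fold, and the others were smaller.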

Other observations

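The following genes were chosen after their values were seen. Mfng, a fringe glycosyltransferase of Notch signalling, was at 127, 151 and 117 CPM in wt saline 1 to 3 and 37.5, 44.8 and 48.7 CPM in ko saline 1 to 3 (log2 fold change -1.59 ± 0.11, edgeR adjusted p = 6.21e-06), and by -1.69 lower under CL. Sncg, gamma-synuclein, an abundant adipocyte protein, fell from 486, 600 and 566 to 172, 233 and 151 CPM (-1.57 ± 0.17, adjusted p = 0.000158). The imprinted gene Nnat, neuronatin, was at 557, 596 and 446 CPM in wt and 173, 249 and 193 CPM in ko (-1.38 ± 0.23, adjusted p = 0.00250). Complement C4b fell from 912, 793 and 886 to 299, 322 and 364 CPM (-1.40 ± 0.13, adjusted p = 5.76e-05), with the limit that it has a close copy whose reads may be shared. Oxtr, the oxytocin receptor, rose from 48.8, 45.4 and 36.7 to 112, 145 and 93.8 CPM (1.42 ± 0.31, adjusted p = 0.00992), a call lost without wt saline 3 (adjusted p = 0.0515).

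Single wt libraries held genes of other tissues. Svs2 and Svs3a, secretory proteins of the seminal vesicle, were at 159 and 27.3 CPM in wt saline 2 and at most 2.07 CPM in the other saline libraries. Both were called lower in ko (adjusted p = 0.0497 and 0.0496), and without wt saline 2 neither call remained, at -0.49 and 0.31. Alb, serum albumin of the liver, was at 125, 19.2 and 47.9 CPM in wt saline 1 to 3 and 7.945 to 10.3 CPM in ko. Mup3 and Serpina1e, 2 other genes of the liver, were at 15.6 and 9.98 CPM in wt saline 1 and at most 3.17 and 3.45 CPM in the other saline libraries.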
